A study of Mus musculus with 4 samples.

Results

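The 8 genes described here, *Krt15*, *Cd34*, *Nes*, *Lgr5*, *Nfatc1*, *Lhx2*, *Sox9* and *Runx1*, are used as markers of the stem and progenitor cells of the bulge and the lower hair follicle (HF). They were chosen by symbol, and all 8 were found among the 32286 features that were counted. The question was where each gene peaked in growing HFs, in compartments set by other marker genes and at known distances from the epidermis, and which genes were too sparse for an answer. Dorsal skin of R26-tdTomato; Krox20-CreERT mice was collected at postnatal day 38 (P38) after 4-hydroxytamoxifen at P2, and was measured on a Visium array, where RNA from a section binds to barcoded spots and each spot holds several cells. The Cre allele sits at the *Krox20* locus and switches on the tdTomato reporter. Every slice is of this 1 genotype, treatment and age, so that places within the skin were compared and not conditions. Per the study, each of the 4 slices carries 1 section from each of the same 3 mice, and a further, distorted section was left out. That section is not marked in the data, so any spots of it were kept here. The slices are technical replicates and their SD leaves out the spread between mice.

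The HF grows and rests in cycles. In the resting HF, stem cells lie in the bulge, below the sebaceous gland, and in the hair germ beneath it. In the growing phase the outer root sheath (ORS) runs down from the bulge to the bulb, where dividing matrix cells around the dermal papilla make the inner root sheath (IRS) and the hair shaft. *Krt15*, *Cd34* and *Nes* encode a basal keratin, a surface sialomucin and an intermediate filament protein, *Lgr5* a receptor for R-spondins that enhances Wnt signaling, and *Nfatc1*, *Lhx2*, *Sox9* and *Runx1* transcription factors.

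The 4 slices held 19393026 to 26910422 unique molecular identifiers (UMIs), and 6411 of 6420 spots with at least 250 genes were kept, with a median of 12618 UMIs. Each spot went to the compartment whose marker genes scored highest, none of which is among the 8 genes. Of 62 such markers, 58 were highest in their own compartment, though the same markers assigned the spots, so this is no independent check. The exceptions were *Krt17* and *Krt75* of the ORS list, *Tchh* of the IRS list and *Hoxc13* of the matrix list. The HF compartments held 3542 spots, made up of 421 of the upper HF, 861 of the ORS, 847 of the IRS, 877 of the hair shaft and 536 of the hair matrix. Depth was counted in grid steps through tissue from the nearest epidermal spot. The median depth was 1 step for the upper HF and 3 for the ORS. It was 4 for the shaft, 5 for the IRS and 6 for the matrix. HF compartments thus spanned the skin down to the muscle, whose median depth was 7 steps. That median covers only muscle spots with a step. Paths did not cross muscle, and 231 of its 1009 spots had none. CPM, the unit of all levels, scales the UMIs of a gene to a fixed total of UMIs in the spots summed. They are not compared between genes. In spots that mix cells, fewer cells of a type and less RNA per cell cannot be told apart.

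**Figure D1:**
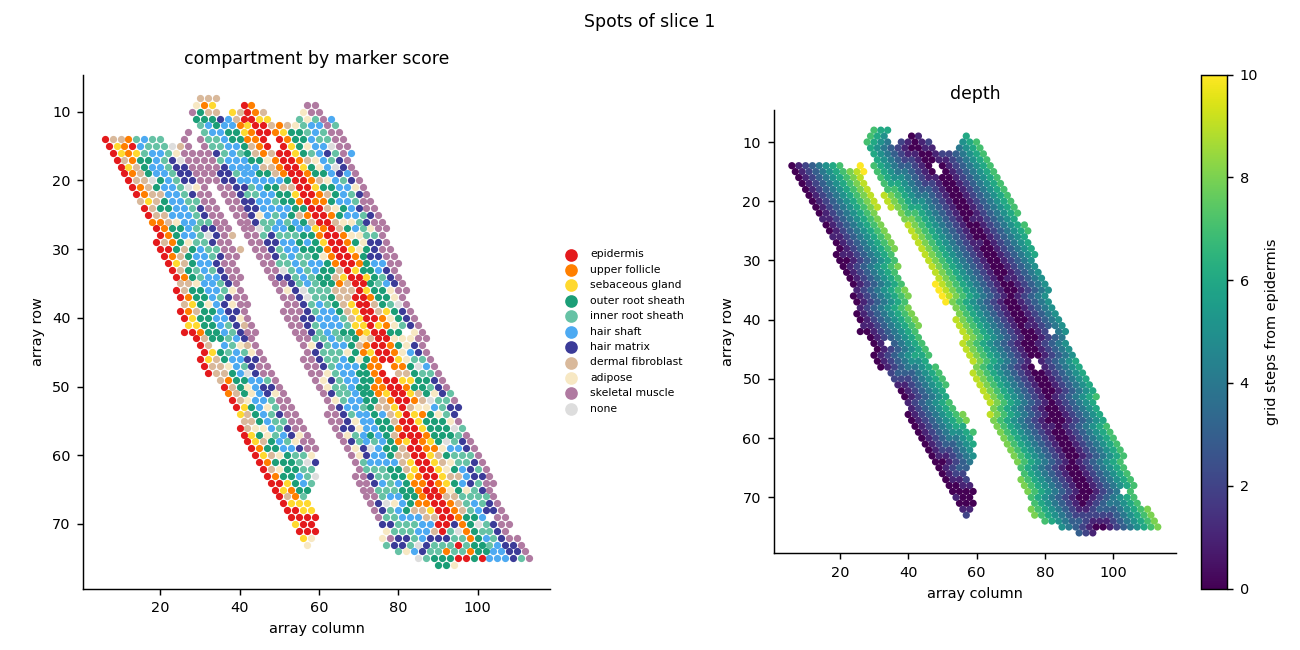
Spots of slice 1 at their array row and column, colored by marker compartment (left) and by grid steps from the epidermis (right). Epidermal spots form lines, the HF compartments follow from step 1, and skeletal muscle lies farthest from the epidermis.

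The 8 genes did not share a position along the growing HF. *Krt15*, *Nfatc1* and *Cd34* were highest at step 1, next to the epidermis, and *Lhx2* was highest over steps 1 and 2. *Sox9* was highest over steps 2 and 3, within the ORS. *Lgr5* and *Nes* were highest at steps 3 and 4, and *Runx1* was highest in the hair matrix and, by mean, at step 7. A gene was called placed where the same compartment or step was highest in 4 of 4 slices. It was called too sparse to place where its highest compartment or step held under 10 UMIs in any slice, or where the exact Poisson 95% intervals of its highest and next level overlapped in every slice. Those intervals cover counting error only. By compartment, *Krt15*, *Cd34*, *Sox9*, *Lhx2* and *Runx1* were placed, whereas *Lgr5*, *Nes* and *Nfatc1* were too sparse. Their highest compartments held at least 112, 89 and 23 UMIs in each slice, so they were called by overlap of intervals and not by the limit of 10 UMIs. Few counts and similar levels both give such overlap, and the rule does not tell them apart. The calls by compartment changed with the processing. At an equal 5500 UMIs per spot *Lhx2* and *Runx1* became too sparse too, each leading in 3 of 4 slices. With expression clusters as compartments *Lgr5* was placed in the ORS, while *Sox9*, *Runx1* and *Cd34* fell under the rule for sparse genes because their intervals overlapped. *Runx1* then led in the IRS in 4 of 4 slices, at 103 CPM against 85.3 CPM in the matrix. *Sox9* was at 552 CPM in the upper HF and 539 CPM in the ORS. No cluster was assigned to dermal fibroblasts. Of the clusters assigned to the ORS, the one of 804 spots had 7.6% of its spots from slice 1. The one of 277 spots had 96.8%, so the clusters of the ORS split by slice. The part of this split in the call for *Lgr5* was not tested. *Krt15* was placed in the epidermis in each of these settings. By step, *Krt15*, *Cd34* and *Nfatc1* were placed at step 1 and were not too sparse. At an equal 5500 UMIs per spot, however, step 1 held as few as 6 UMIs of *Nfatc1* in a slice, which is under the limit of 10. *Lhx2* at step 1 and *Sox9* at step 2 led in 4 of 4 slices, but they fell under the rule for sparse genes because their intervals overlapped those of the next step in each slice, and so did *Lgr5*, *Nes* and *Runx1*, which were not placed. With hair keratin genes left out of the totals, a setting added after the data were seen, neither *Sox9* nor *Lhx2* led at 1 step in 4 of 4 slices, and *Lgr5* by compartment was no longer too sparse but was still not placed. *Lgr5*, *Nes* and *Nfatc1* had 2163, 1753 and 828 UMIs in all kept spots, against 4955 to 50903 for the other 5. The name of bulge or lower HF markers did not describe where all of them were highest, since *Krt15* led in the epidermis and *Cd34* in dermal fibroblast spots.

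**Figure D2:**
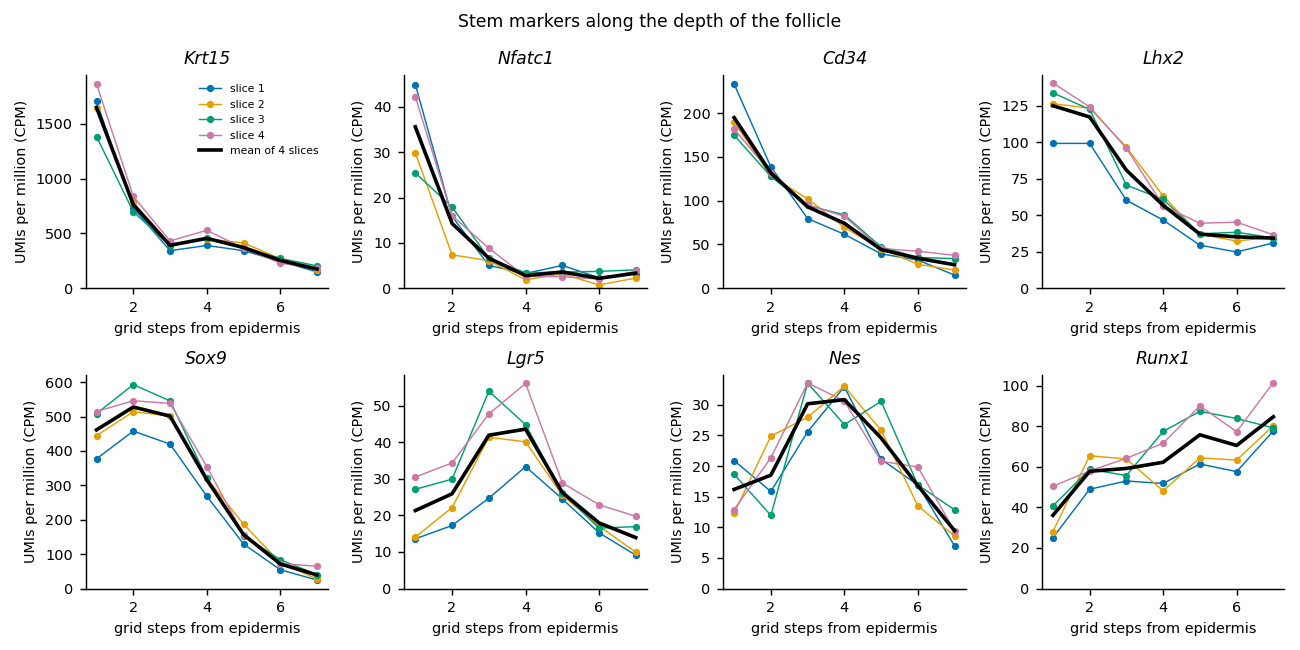
CPM of each gene over follicle spots at 1 to 7 grid steps from the epidermis. Colored lines are the 4 slices and the black line is their mean. *Krt15*, *Nfatc1* and *Cd34* fall from step 1, *Sox9* holds to step 3, *Lgr5* and *Nes* crest at steps 3 and 4, and *Runx1* is lowest at step 1.

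*Krt15* (chr11:100131758-100135928, minus strand, GRCm38) was highest in the epidermis, not in a follicle compartment. Its level there was 1935, 2119, 1841 and 2089 CPM in slices 1 to 4, against 1740, 1726, 1494 and 1869 CPM in the upper HF. Within every slice the epidermis was higher, and the counting intervals did not overlap, although the ranges over slices did. In the ORS its level was 469 ± 48 CPM (SD, n = 4) and in the hair matrix 153 ± 22 CPM, the lowest of the 10 compartments.

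Along the HF, *Krt15* fell from 1647 ± 200 CPM at step 1 to 762 ± 61 at step 2 and 391 ± 37 at step 3, and the counting intervals of steps 1 and 2 did not overlap in any slice. It was then 455 ± 57 CPM at step 4 and 175 ± 23 at step 7. Spots at step 1 can hold epidermal cells. In the 112 follicle spots of step 1 with the lowest summed epidermal markers *Krt15* stood at 1392 ± 274 CPM, and in the 112 with the highest at 1788 ± 189, while the marker sum was 3096 and 9314 CPM. The part of epidermal RNA in the step 1 level was not tested further.

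*Cd34* (chr1:194938819-194961279, plus strand), a bulge marker in mice that endothelium and dermal fibroblasts also express, was highest in the dermal fibroblast compartment. Its level there was 269, 338, 295 and 330 CPM in slices 1 to 4, above every other compartment in each slice. In the ORS it was 105, 115, 110 and 118 CPM, close to skeletal muscle at 105 ± 7.5 CPM and above the matrix at 25.6 ± 6.5 CPM. Along the HF it fell in each slice from step 1 to step 7, from 195 ± 26 to 26.8 ± 11 CPM.

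The summed fibroblast markers fell over the same steps, from 16159 to 1564 CPM. Within step 1 *Cd34* was 131 ± 18 CPM in the 112 spots with the lowest fibroblast sum and 263 ± 37 CPM in the 112 with the highest, and the ranges over slices did not overlap. With the endothelial markers in place of the fibroblast markers the values were 163 ± 30 and 237 ± 69 CPM, with overlap. The part of fibroblast RNA in the ORS level of *Cd34* was not tested.

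*Nes* (chr3:87971078-87980451, plus strand), known from neural progenitors and reported in follicle stem cells, was highest in the hair shaft at 33.4, 26.1, 35.3 and 39.5 CPM in slices 1 to 4. The ORS followed at 24.6, 29.5, 28.8 and 33.8 CPM. The ranges overlapped, the shaft led in 3 of 4 slices, and the counting intervals overlapped in all 4, so that its peak compartment stayed unresolved. The matrix was lowest at 6.16 ± 0.41 CPM, with no overlap with either.

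By depth *Nes* was 30.2 ± 4.0 CPM at step 3 and 30.9 ± 2.9 at step 4, each highest in 2 of 4 slices, against 16.2 ± 4.3 at step 1 and 9.45 ± 2.5 at step 7. Step 5 was at 24.6 ± 4.6 CPM, and its range over slices overlapped those of steps 3 and 4. The steps that held most *Nes* thus lay between steps 1 and 7, but steps 3 to 5 were not told apart. At steps 3 and 4 the level of *Nes* was also read by the summed markers of other cell types that express it. It was 30.3 ± 4.1 CPM in the 413 spots with the fewest endothelial marker UMIs and 33.4 ± 3.8 in the 413 with the most. For the smooth muscle and pericyte markers the values were 30.8 ± 2.4 and 34.9 ± 4.7 CPM, and for the Schwann cell markers 33.7 ± 2.2 and 28.7 ± 4.2 CPM, with overlap in each case. The part of RNA from these cell types in the level of *Nes* was not tested.

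*Lgr5* (chr10:115450311-115587780, minus strand) marks stem cells of the lower bulge and hair germ and, in growing HFs, the lower ORS. It was 24.6, 41.2, 50.3 and 49.9 CPM in the ORS and 32.0, 24.9, 36.8 and 39.5 CPM in the hair shaft in slices 1 to 4. The ORS led in 3 of 4 slices and slice 1 went the other way. The epidermis was lowest at 11.3 ± 3.5 CPM, the matrix was at 15.02 ± 5.1 CPM and skeletal muscle, which is outside the HF, at 16.7 ± 2.4 CPM.

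Over depth *Lgr5* was 21.3 ± 8.8 CPM at step 1, 41.9 ± 13 at step 3, 43.6 ± 9.6 at step 4 and 13.9 ± 5.2 at step 7. Slices 1 and 4 were highest at step 4 and slices 2 and 3 at step 3. At steps 3 and 4 together, the ORS, IRS and shaft compartments held 46.5 ± 14, 40.0 ± 12 and 44.0 ± 7.7 CPM of *Lgr5*, so the layers did not differ beyond their spread at that depth. By contrast *Sox9* at the same steps was 580 ± 90 CPM in the ORS, against 246 ± 24 in the IRS and 304 ± 34 in the shaft, with no overlap between the ORS and either.

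*Nfatc1*, a transcription factor of resting bulge cells, was highest in the upper HF in 3 of 4 slices, at 49.0, 22.3, 29.3 and 42.2 CPM. In the epidermis it was 30.6, 33.1, 26.3 and 32.5 CPM, so the ranges overlapped, and the smallest peak rested on 23 UMIs in 1 slice. ORS spots held 8.11 ± 2.1 CPM, close to skeletal muscle at 6.64 ± 1.6 CPM. The depth profile, taken over follicle spots only, was clearer than the compartments. It leaves out epidermal and sebaceous gland spots, which held 30.6 and 30.5 CPM when pooled, against 37.1 CPM in the upper HF. Step 1 was highest in all 4 slices at 44.9, 29.9, 25.4 and 42.2 CPM, above step 2 at 15.9, 7.4, 17.9 and 16.0 CPM with no overlap between slices. From step 4 to step 7 its mean stayed between 2.20 and 3.58 CPM. Within step 1 *Nfatc1* was 32.8 ± 6.3 CPM in the 112 follicle spots with the lowest immune marker sum and 44.5 ± 25 in the 112 with the highest. For the endothelial markers the values were 36.2 ± 7.1 and 39.1 ± 11 CPM, with overlap in both cases. The part of RNA from these cell types in the level of *Nfatc1* was not tested.

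*Lhx2* (chr2:38339281-38369733, plus strand), a LIM homeodomain factor of bulge and germ cells, was highest in the upper HF at 101, 109, 150 and 149 CPM in slices 1 to 4. The ORS came next at 85.2, 105, 94.96 and 123 CPM. The upper HF led in each slice, with counting intervals that overlapped in 3 of 4. Counted as UMIs per spot, without a total, the order turned and the ORS led with 1.27 ± 0.17 UMIs. Its depth profile had a plateau at 125 ± 18 CPM at step 1 and 117 ± 12 at step 2, and reached 37.1 ± 6.1 CPM at step 5. In the matrix *Lhx2* was 41.2 ± 7.6 CPM, above the IRS at 34.4 ± 3.4 CPM in each slice.

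*Sox9* (chr11:112782224-112787760, plus strand), needed for the bulge and the ORS, was the 1 gene of the 8 placed in the ORS. Its level was 492, 541, 646 and 675 CPM in slices 1 to 4, against 387, 431, 533 and 537 CPM in the upper HF. The ORS was higher in every slice without overlap of the counting intervals, though the ranges over slices overlapped. The matrix held 28.2 ± 13 CPM. Along the HF *Sox9* was 461 ± 64 CPM at step 1, 528 ± 57 at step 2 and 502 ± 58 at step 3, and then fell to 316 ± 35, 157 ± 24, 71.6 ± 12 and 39.4 ± 18 CPM at steps 4 to 7. Step 2 led in 4 of 4 slices on at least 558 UMIs, but its interval overlapped that of the next step in each, so the crest spanned steps 2 and 3. Without the hair keratin genes step 2 led in 2 slices and step 3 in the other 2. ORS marker sums also rose from 13379 CPM at step 1 to 17925 at step 2 and 16583 at step 3, and were 2690 CPM at step 7. *Sox9* at steps 2 and 3 also differed by fibroblast markers. It was 441 ± 44 CPM in the 333 follicle spots with the lowest fibroblast sum. In the 333 with the highest it was 544 ± 57 CPM, and the ranges over slices did not overlap. The part of fibroblast RNA in the level of *Sox9* was not tested.

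*Runx1* (chr16:92601466-92826149, minus strand), known to act when resting follicle stem cells start to divide and also expressed in blood cells, was highest in the hair matrix in 4 of 4 slices, at 81.5, 83.1, 99.99 and 102 CPM. The IRS followed at 58.8, 62.2, 91.6 and 79.0 CPM, and the upper HF was lowest at 35.1 ± 11 CPM. *Runx1* was broad, with 52.4 ± 5.4 CPM in skeletal muscle and 63.1 ± 7.8 CPM in adipose spots. By depth it went from 36.1 ± 12 CPM at step 1 to 84.7 ± 11 at step 7, highest at step 7 in 3 slices and at step 5 in slice 3. The mean at step 5 was 75.8 CPM, and the counting intervals of steps 5 and 7 overlapped in 4 of 4 slices, so its peak step was not resolved. The profile stops at step 7, the last step with at least 20 follicle spots in every slice. Step 8 held 114 follicle spots, 89 of them of the matrix, so a peak beyond step 7 was not examined.

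At steps 6 to 8, *Runx1* was 80.3 ± 5.7 CPM in the 297 spots with the lowest immune marker sum and 64.9 ± 8.5 in the 297 with the highest, where the sums were 0.88 and 215 CPM. The share of matrix cells in these 2 sets of spots was not compared, and the part of immune RNA in the level of *Runx1* was not tested. For the dermal papilla markers the values were 72.2 ± 10 and 81.4 ± 6.3 CPM, with overlap.

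**Figure D3:**
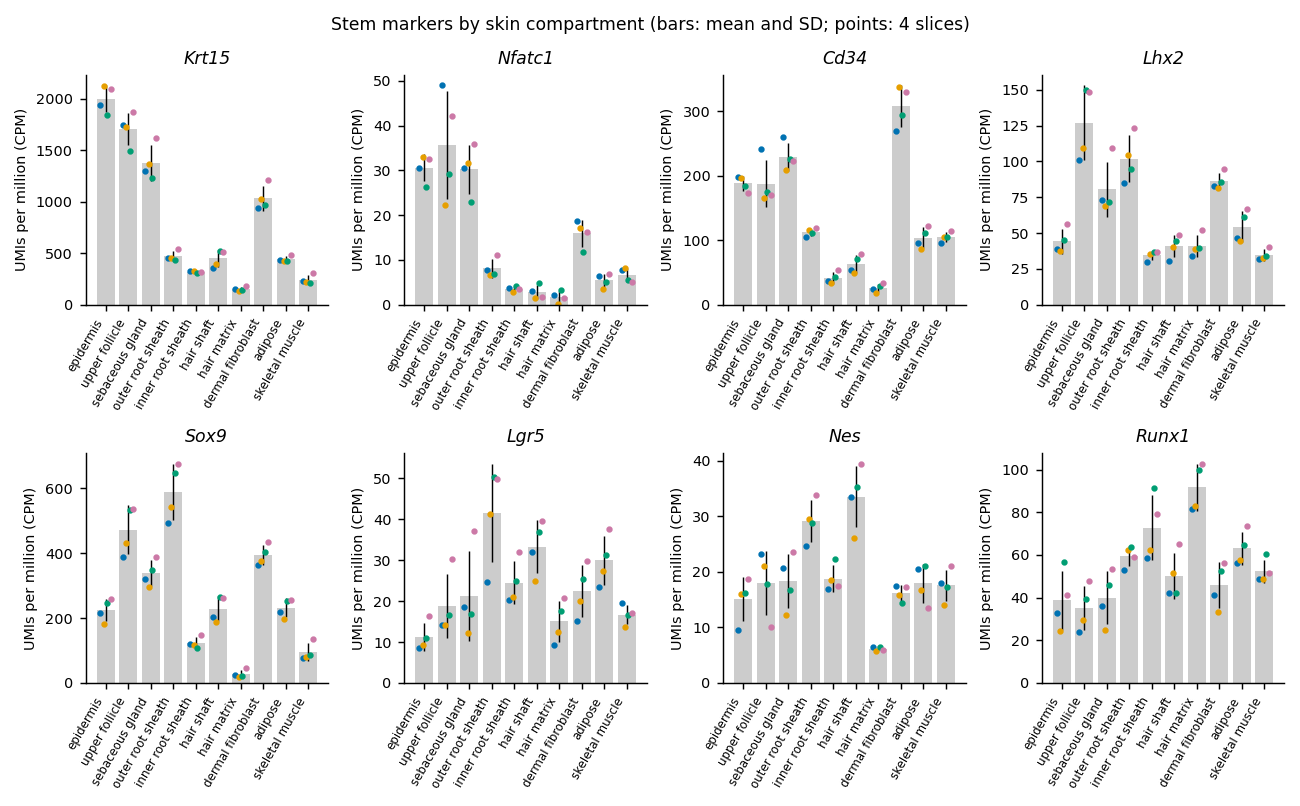
CPM of each gene in the 10 marker compartments. Bars are means of 4 slices with SD and points are slices 1 to 4. *Sox9* is highest in the ORS, *Lhx2* in the upper HF, *Krt15* in the epidermis, *Cd34* in dermal fibroblast spots and *Runx1* in the hair matrix, while the points of *Lgr5*, *Nes* and *Nfatc1* overlap between their leading compartments.

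To set the genes in order of depth, the mean step weighted by CPM over steps 1 to 7 was taken as the center of each profile, which is 4.00 for a flat one. The order was *Nfatc1* at 2.19 ± 0.22 steps, *Krt15* at 2.66 ± 0.13, *Cd34* at 2.75 ± 0.21, *Sox9* at 2.78 ± 0.04, *Lhx2* at 3.01 ± 0.02, *Lgr5* at 3.74 ± 0.11, *Nes* at 3.80 ± 0.10 and *Runx1* at 4.42 ± 0.05 (SD, n = 4). Neighbors in this order that did not differ beyond their spread were *Krt15* and *Cd34*, *Cd34* and *Sox9*, and *Lgr5* and *Nes*, in which the deeper gene was deeper in 3, 2 and 2 of 4 slices. The other 4 neighboring pairs kept their order in 4 of 4 slices. An exact sign-flip test over 4 slices cannot go below a two-sided p of 0.125, so it was not used to separate them.

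The share of spots with a UMI told less than the level. *Lgr5* was found in 35.5% ± 6.0 of ORS spots and 21.4% ± 2.3 of muscle spots, at medians of 11428 and 14179 UMIs. After each spot was thinned to 5500 UMIs, these were 21.3% ± 6.7 and 8.40% ± 1.4. The matching thinned shares of *Nes* were 15.6% ± 2.1 and 8.39% ± 0.50. For *Nfatc1* they were 4.18% ± 1.8 and 4.03% ± 0.88, so its ORS share was close to that of muscle. Muscle was not shown to be free of *Nfatc1*, which had 6.79 CPM there and 1.69 CPM in the matrix over pooled spots. The thinned upper HF share of *Nfatc1* was 17.3% ± 8.3. *Runx1* in the matrix, the deepest compartment with a median of 23668.5 UMIs, was found in 82.6% ± 1.5 of spots before thinning and 37.5% ± 4.0 after, with 25.4% ± 5.1 in thinned muscle.

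Counts were then summed per slice and compartment and fitted with edgeR over all genes. Between the ORS and the upper HF, *Lgr5* was higher in the ORS by a log2 fold change of 1.07 ± 0.24 (SE), *Runx1* by 0.74 ± 0.18 and *Nes* by 0.67 ± 0.19. *Nfatc1* was lower at -2.21 ± 0.24, *Krt15* at -1.89 ± 0.11, *Cd34* at -0.77 ± 0.12 and *Lhx2* at -0.34 ± 0.12, with an adjusted p of 0.0318 for *Lhx2*. Thus 7 of the 8 genes passed, against 23% of the 12442 genes tested (9.9% higher and 13.1% lower), and their median was -0.02 against 0.01 for all genes. *Sox9* had a log2 fold change of 0.29 ± 0.14 with an adjusted p of 0.145, which became 0.00645 with the slice as a block. The *Nes* call was lost without slice 4, at an adjusted p of 0.222, and that of *Lhx2* without slice 3, at 0.349. After thinning to 5500 UMIs *Nes* and *Runx1* no longer passed, at 0.236 and 0.0814. With clusters in place of marker scores *Runx1* did not pass, at 0.318, and *Sox9* stood at -0.03. *Lhx2* also did not pass with library size only, without the filter on low counts, with the first 3 markers of each list or with a minimum score of 1, at adjusted p from 0.0814 to 0.936.

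Against the hair matrix, 7 genes were higher in the ORS, from 1.32 ± 0.12 for *Lhx2* to 4.41 ± 0.17 for *Sox9*, and *Runx1* was lower at -0.61 ± 0.13, with an adjusted p of 6.83e-05. In this comparison 66.8% of all genes passed, 33.2% higher and 33.7% lower. Their median was 1.89 against -0.02 for all genes. *Sox9* was therefore the gene of the 8 that differed most between the sheath and the bulb.

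Against the epidermis, all 8 passed, where 35.7% of all genes did, 16.8% higher and 18.9% lower. *Lgr5* at 1.88 ± 0.25, *Sox9* at 1.38 ± 0.15, *Lhx2* at 1.21 ± 0.13, *Nes* at 1.00 ± 0.18 and *Runx1* at 0.63 ± 0.16 were higher in the ORS. *Krt15* at -2.10 ± 0.11, *Nfatc1* at -1.93 ± 0.23 and *Cd34* at -0.75 ± 0.12 were lower. The call for *Runx1* was lost after thinning, at an adjusted p of 0.208.

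Against dermal fibroblast spots, which lie between the follicles, 7 of 8 passed, where 21% of all genes did, 9.03% higher and 12% lower. *Lgr5* at 0.95 ± 0.22, *Nes* at 0.87 ± 0.18, *Sox9* at 0.62 ± 0.14 and *Runx1* at 0.45 ± 0.16 were higher in the ORS. *Cd34* at -1.41 ± 0.11, *Krt15* at -1.09 ± 0.10 and *Nfatc1* at -0.98 ± 0.27 were lower. *Lhx2* was at 0.29 ± 0.12 with an adjusted p of 0.0894, or 0.0155 with the slice as a block. The call for *Runx1* was lost without slice 1, 2 or 3, with adjusted p of 0.124, 0.278 and 0.0514, after thinning, at 0.428, with library size only, at 0.139, and with the first 3 markers of each list, at 0.0609. That for *Nfatc1* was lost without slice 1, at 0.0514. The dermal fibroblast compartment held 11653 CPM of ORS markers, against 19236 in the ORS, so its spots were not free of keratinocyte RNA.

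**Figure D4:**
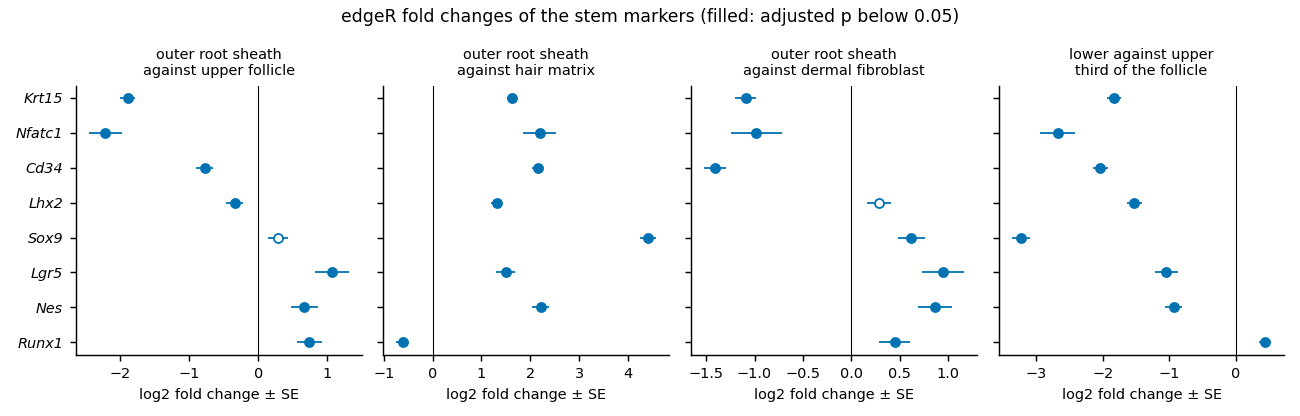
Log2 fold changes with SE from edgeR for the 8 genes in 4 comparisons, fitted on sums of 4 slices. Filled points have an adjusted p below 0.05. *Sox9* stands farthest to the right in the ORS against the hair matrix, and *Runx1* is the gene on the opposite side from the other 7 in that comparison and in the lower against the upper part of the follicle.

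By depth, HF spots were cut into an upper part at steps 1 to 3, a middle part at steps 4 and 5 and a lower part from step 6. From the upper to the lower part, 7 of the 8 genes fell, by 3.23 ± 0.14 for *Sox9*, 2.68 ± 0.26 for *Nfatc1*, 2.04 ± 0.11 for *Cd34*, 1.84 ± 0.11 for *Krt15*, 1.53 ± 0.11 for *Lhx2*, 1.04 ± 0.17 for *Lgr5* and 0.93 ± 0.13 for *Nes* on the log2 scale. *Runx1* rose by 0.44 ± 0.10, with an adjusted p of 0.000589. All 8 passed, where 63.5% of all genes did, 31.4% higher and 32.1% lower.

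The step between the upper and the middle part separated the genes. *Nfatc1*, *Lhx2*, *Sox9*, *Cd34* and *Krt15* were already lower, by 2.13, 1.07, 1.06, 1.06 and 0.83 on the log2 scale. *Lgr5* was at 0.13 ± 0.16 and *Nes* at 0.29 ± 0.12, with adjusted p of 0.532 and 0.0544, and 0.0486 for *Nes* with the slice as a block. *Runx1* was higher by 0.41 ± 0.10. Of all genes 40.8% passed, 19.7% higher and 21.1% lower, and 6 of the 8 did. *Nes* passed without slice 4, at an adjusted p of 0.0398.

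From the middle to the lower part 6 of the 8 fell, where 42.6% of all genes passed, 20.7% higher and 21.9% lower. *Nes* fell by 1.22 ± 0.12 and *Lgr5* by 1.17 ± 0.16, so that most of their drop lay here. *Runx1* was at 0.03 ± 0.09 and *Nfatc1* at -0.55 ± 0.33, neither past the threshold. The fall of *Lhx2* did not pass with bands at fixed steps or a minimum score of 1, at adjusted p of 0.0773 and 0.579.

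These depth comparisons mix layers, because the lower part held few ORS spots. They were repeated in ORS spots alone, cut at steps 1 to 2 (308 spots), step 3 (372 spots) and steps 4 to 8 (180 spots). Of the 180, 138 were at step 4, so these parts do not reach the depths of the lower part of all HF spots. *Lgr5* and *Nes* were higher at steps 4 to 8 than at steps 1 to 2. Over all HF spots they were higher at step 4 than at steps 1 and 2 as well, with *Lgr5* at 21.3, 25.9 and 43.6 CPM at steps 1, 2 and 4 and *Nes* at 16.2, 18.5 and 30.9 CPM. *Lgr5* was 22.2, 21.8, 34.7 and 39.3 CPM at steps 1 to 2 in slices 1 to 4, and 30.4, 57.1, 67.1 and 59.3 CPM at steps 4 to 8. It was higher in each slice, and the ranges overlapped through slice 1. *Nes* was 13.9, 21.8, 14.7 and 21.7 CPM at steps 1 to 2, and 41.8, 42.0, 27.1 and 33.3 CPM at steps 4 to 8, with no overlap.

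In edgeR on these sums, *Lgr5* was higher at steps 4 to 8 than at steps 1 to 2 by 0.98 ± 0.24 and *Nes* by 1.07 ± 0.25, with adjusted p of 0.00823 and 0.00528. *Krt15* at -0.78 ± 0.12, *Lhx2* at -0.64 ± 0.14 and *Cd34* at -0.57 ± 0.13 were lower. All 5 kept their direction when a slice was left out, but *Lgr5* no longer passed without slice 2 (0.84, adjusted p = 0.122) or slice 3 (0.95, adjusted p = 0.0593). *Sox9* at -0.11 ± 0.12 and *Runx1* at 0.03 ± 0.15 did not pass, and *Nfatc1* was too low to be tested. So 5 of the 7 genes tested passed, where 10.6% of 8699 genes did. *Sox9* was 607 ± 88 CPM in ORS spots at steps 1 to 2 and 541 ± 89 CPM at steps 4 to 8. With 29, 8 and 3 ORS spots at steps 5, 6 and 7, these values do not cover the depths at which *Sox9* was lowest over all HF spots.

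The marker sums of the same ORS spots shifted too. From steps 1 to 2 to steps 4 to 8, IRS markers went from 20528 to 34604 CPM, shaft markers from 4662 to 7373, upper HF markers from 9042 to 1861, fibroblast markers from 8975 to 2892 and ORS markers from 20509 to 17049. Their part in the values of *Lgr5* and *Nes* was not tested.

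**Figure D5:**
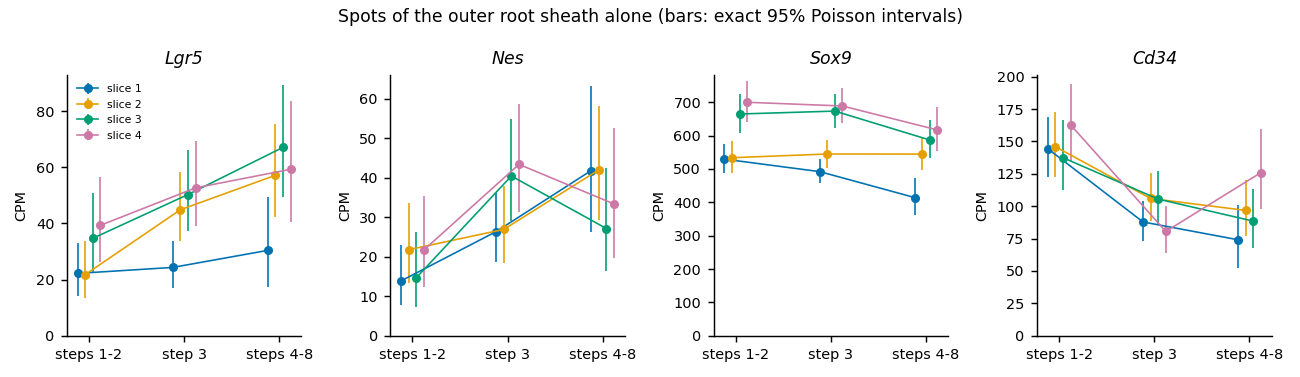
CPM of *Lgr5*, *Nes*, *Sox9* and *Cd34* in ORS spots alone at steps 1 to 2, step 3 and steps 4 to 8. Points and lines are the 4 slices and bars are exact Poisson 95% intervals. *Lgr5* and *Nes* are higher at steps 4 to 8 than at steps 1 to 2 in each slice, whereas *Cd34* is lower.

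A list of 13 further genes of the follicle stem cell program gave the surroundings of these results. *Tcf7l1*, *Tcf7l2* and *Nfib*, which encode transcription factors, *Bmp6*, the Wnt regulator *Sfrp1*, the surface protein *Cd200* and the cadherin *Cdh3* were highest in the ORS by mean CPM. *Dkk3* and the genes of the basal adhesion proteins, *Col17a1* and *Itga6*, were highest in the upper HF. *Foxc1* was highest in the IRS at 118 ± 5.6 CPM and *Gli1*, a Hedgehog target, in the matrix at 31.2 ± 2.5 CPM. *Fgf18* had 25 UMIs in all and was not tested.

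Of the 12 program genes tested, 7 were higher and 1 (*Itga6*) was lower in the ORS than in the epidermis, where 35.7% of all genes passed. Against the upper HF 3 were higher, *Sfrp1*, *Cdh3* and *Tcf7l2*, and 2 were lower, *Itga6* and *Dkk3*, with 23% of all genes passing. Against the matrix 11 were higher and *Gli1* was lower at -2.26 ± 0.17, beside 66.8% of all genes. Against dermal fibroblast spots 4 were higher and none lower, beside 21%. From the upper to the lower part of the HF 10 fell and *Gli1* rose by 1.74 ± 0.16, beside 63.5% of all genes, while *Foxc1* was at -0.02 ± 0.10. Of the 10, *Col17a1* fell most, by 3.09 ± 0.15.

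Over the 40 sums of slice and compartment, the genes with the profile most like each of the 8 were named by the Pearson correlation of log2(CPM + 1). The sums share libraries and compartment makeup, so the values are descriptions. For *Sox9* these were *Il11ra1*, *Pinlyp* and *Cald1* (r = 0.98 to 0.97), for *Krt15* *Lamb3*, *Col7a1* and *Ahnak2* (0.97 to 0.96) and for *Cd34* *Cavin1*, *Crip1* and *Acvrl1* (each 0.97). *Lamb3* and *Col7a1* encode proteins of the epidermal basement membrane. For *Lhx2* they were *Cyp1b1*, *Cpt1a* and *Fzd2* (0.94 to 0.93), and for *Nfatc1* *S100a4*, *H2-K1* and *Cpe* (each 0.94).

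The nearest genes were less alike for the deeper members. *Runx1* had *Cfl1*, *Nab2* and *Hspa4* (0.88 to 0.87), *Lgr5* had *Thbs1*, *Slc7a8* and *Lrrc75b* (0.86 to 0.83), and *Nes* had *Krtap2-4*, *Krt16* and *Gm11567* (0.87 to 0.86). *Krtap2-4* is a hair keratin-associated protein of the shaft. Among the 8 genes themselves the highest value was 0.90 between *Krt15* and *Nfatc1*, followed by *Cd34* with *Nfatc1* at 0.86 and *Cd34* with *Krt15* at 0.83. *Sox9* and *Lhx2* were at 0.75, *Lgr5* and *Nes* at 0.58, and *Runx1* with *Krt15* and with *Nfatc1* at -0.74 each.

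The peaks were also read in 12 strips, 3 per slice cut by position. *Krt15* and *Cd34* were highest at step 1 in 12 of 12 strips and *Nfatc1* in 11. *Sox9* was highest in the ORS in 12 of 12 and at step 2 in 9, with the other 3 at step 3. *Lhx2* was highest in the upper HF in 9 but at step 1 in only 5, with peaks from step 1 to step 3. *Runx1* was highest in the matrix in 11 of 12 but at step 7 in only 5, with peaks from step 2 to step 7. *Lgr5* was highest in the ORS in 7 and at step 4 in 7, with peaks from step 1 to step 4. In its other strips the hair shaft, adipose or upper HF compartment led. *Nes* was highest in the hair shaft in 7. It was highest at step 4 in 4 strips and at step 5 in as many, with peaks from step 1 to step 5. The strips of a slice share its library and are not replicates.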

How the data were processed

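UMI counts per gene and spot, deposited by the authors for 4 Visium slices without normalization, were used. Per the file headers they came from Space Ranger 2.0.1, and the submitters' processing notes give mm10. Gene positions are from GENCODE M21 (GRCm38). The 8 genes, the marker lists and the program list were chosen with earlier results of these data known. Spots with under 250 genes were removed. Each spot's compartment was the marker list with the highest mean z-score within its slice (minimum 0.5), and depth was the shortest path over neighboring spots to an epidermal spot without crossing muscle. A section that the study left out is not marked, so all sections were used. No doublet caller was run. Sums of at least 10 spots were tested in edgeR 4.0.16 (TMM, filterByExpr, quasi-likelihood, Benjamini-Hochberg at 0.05 over all genes), which was checked on simulated data. p-values measure the spread between slices of the same mice. Within a slice, deviations of sums from the place means correlated at 0.07 to 0.33 on average, and these sums share sections, so that the slice number pairs them. Clusters (Seurat 5.3.0), DESeq2 1.42.0, thinning, filters and omitted slices were alternatives. Named genes are the 8, the 3 most like each, and the program list.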

Additional observations from a re-analysis of the deposited data

Results flagged for a closer look

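Of 136 sets of 4 slice values of the 8 genes, over compartments and steps, 6 had 1 slice far from the other 3, where chance gives about 1 in 20. *Lgr5* in the upper HF was 30.3 CPM in slice 4 (33 UMIs), against 14.1 to 16.5 CPM in the others. *Cd34* in the upper HF was 241 CPM in slice 1, against 166 to 174 CPM. *Krt15* in skeletal muscle was 307 CPM in slice 4, against 214 to 229 CPM. *Lhx2* in sebaceous gland spots was 109 CPM in slice 4, against 68.6 to 72.9 CPM, and at step 2 it was 99.3 CPM in slice 1, against 123 to 124 CPM. *Runx1* at step 7 was 102 CPM in slice 4, against 77.7 to 80.3 CPM.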

How the results depend on the processing

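Of 1037 alternative log2 fold changes of the 8 genes, 978 kept their direction and side of the threshold, 26 lost and 14 gained a call, and 19 changed direction. Of the 19, *Lgr5* and *Nes* passed on both sides. In outer root sheath (ORS) spots alone, cut at shallower steps than the parts of all follicle spots, *Lgr5* was at 0.98 and *Nes* at 1.07, and 2 genes were higher and 3 lower, with 918 genes called of all. Its middle against upper part had 3 lower, *Sox9* at 0.0018 and 440 genes, and its lower against middle part had 0 lower of the 8 by edgeR (0 at an unadjusted p below 0.05), with 33 genes called, *Lgr5* at 0.42, *Cd34* at 0.048, *Krt15* at 0.18, *Nes* at 0.15 and *Runx1* at -0.079.

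Thinning to 5500 UMIs, which removes counts and 563 spots, called 2827, 1615, 5239 and 1366 genes for the ORS against epidermis, upper follicle, matrix and dermal fibroblast spots (4445, 2862, 8316 and 2616 before), and 5211, 3060 and 2964 for lower against upper, middle against upper and lower against middle (7836, 5027 and 5253 before). It left 1 of the 8 genes, *Lgr5*, higher in the ORS than in the upper follicle. A minimum score of 1 called 2072 genes for lower against middle. Thinned shares of spots with a UMI at the peak were 21.3% for *Lgr5*, 77.8% for *Cd34*, 95.4% for *Sox9*, 49.7% for *Lhx2*, 17.3% for *Nes* and 37.5% for *Runx1*, as fewer UMIs per spot give.

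For middle against upper, 2 genes were higher (*Nes* and *Runx1*) with clusters, no low-count filter, sebaceous spots, a minimum of 1000 genes and the replicate block, and 1 to 2 without 1 slice. *Lgr5* was there at -0.17 with bands at fixed steps, -0.30 with a minimum score of 1, -0.054 after thinning and -0.013 to 0.27 without 1 slice. *Runx1* in lower against middle was at -0.019 with the first 3 markers, -0.013 with a minimum score of 1, -0.10 after thinning and -0.031 to 0.090 without 1 slice. In ORS spots it was at -0.025 with library size only and -0.10 to 0.088 without 1 slice, where 1 to 2 genes were higher. With the replicate block, the calls of *Nes* over depth and of *Lhx2* and *Sox9* given in the report changed and no other call of the 8 did. With clusters, *Sox9* in the ORS against the upper follicle was at -0.030 and *Nfatc1* in the upper follicle at 21.7 CPM, and the peaks of *Sox9*, *Cd34*, *Nfatc1* and *Runx1* lay in the upper follicle, sebaceous gland, sebaceous gland and inner root sheath. There, 59.7% of spots had the same compartment. The peak step of *Lgr5* was 3 after thinning, and steps 3 to 4 without 1 slice, as for *Nes*. In UMIs per spot *Sox9* peaked at step 3 and *Lhx2* at step 2. The cause of these changes was not tested. The peak compartment of *Nfatc1* rests on as few as 23 UMIs in a slice, and ORS levels below step 4 on few spots.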
